A study of Bos taurus with 27 samples.

Results

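Among 116933 assembled loci of bovine embryos, 203 had almost no RNA in 8-cell IVF libraries and clear levels in late 8-cell IVF libraries. They were chosen by their levels: a locus of fewer than 20 assembled transcripts was taken when its median was under 0.1 FPKM over the 8-cell IVF libraries and at least 5 FPKM over the late 8-cell IVF libraries. FPKM scales sequenced fragments to transcript length and to library size, and the level of a locus is the sum over its transcripts. The difference between the IVF stages was thus fixed by the choice and is given as a description. The parthenotes took no part in it. The deposited identifiers are paired with no gene name, so the loci are numbered here by rank in their late median, from 1 for the highest, and only the first and second carry their identifier.

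Polyadenylated RNA was measured in 27 libraries of embryos grown in SOF medium under oil at 38.5 C. They were 11 libraries of Bos taurus parthenotes at the 8-cell stage, 8 libraries of late 8-cell IVF embryos and 8 libraries of 8-cell IVF embryos, both IVF groups being F1 crosses of Bos taurus and Bos indicus. IVF embryos come from oocytes fertilised in vitro, and parthenotes develop without a sperm. Whether a library holds a whole embryo, a cell or pooled embryos is not stated, and neither is the origin of the replicates, so a p-value here weighs a difference only against the scatter of these libraries, which may be technical. The parthenote and late libraries carry the request number 19058 and the 8-cell IVF libraries carry 18062. Between the IVF groups, stage and request number thus coincide and cannot be told apart.

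A mammalian embryo first lives on RNA stored in the oocyte and then begins to transcribe its own genome, a step called embryonic genome activation. In cattle the main wave falls around the late 8-cell stage. Parthenotes hold no paternal chromosomes, and imprinted genes expressed only from the paternal copy are a known gap in them. Because no locus is paired with a name, the roles of these loci cannot be given and markers of cell types could not be checked.

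The FPKM sums were 304837 to 344231 in parthenotes, 297657 to 418788 in late libraries and 311024 to 329958 in 8-cell IVF libraries. Read totals are not given by FPKM, but steps of whole reads among low values gave depths relative to the median library of 0.682 to 1.38 in parthenotes, 0.337 to 1.67 in late libraries and 0.694 to 0.906 in 8-cell IVF libraries. The shallowest was late replicate 6. The library labelled late 8-cell IVF replicate 1, at a relative depth of 0.819, stood apart from its group. Of the 203 loci, 156 were listed at 0 in it and 4 reached 1 FPKM, against 183 to 201 loci in each of the 7 other late libraries. Group sums, shares and numbers of loci in late embryos are therefore given with and without it, and the levels of single loci name it where it sets their lowest value.

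Together the 203 loci held 93.8 FPKM ± 110 (SD, n = 11) in parthenotes, 4165 FPKM ± 1927 (SD, n = 8) in late embryos and 28.2 FPKM ± 22.3 (SD, n = 8) in 8-cell IVF embryos. Without replicate 1 the late sum was 4756 FPKM ± 1037 (SD, n = 7). As a share of all FPKM this was 0.0282% ± 0.0325 (SD, n = 11) in parthenotes, 1.10% ± 0.499 (SD, n = 8) in late embryos and 0.00877% ± 0.00673 (SD, n = 8) in 8-cell IVF embryos. Without replicate 1 the late share was 1.26% ± 0.252 (SD, n = 7). The loci thus took a small part of the late transcriptome. Where a library holds several cells, fewer transcribing cells and less RNA per cell cannot be told apart.

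**Figure D1:**
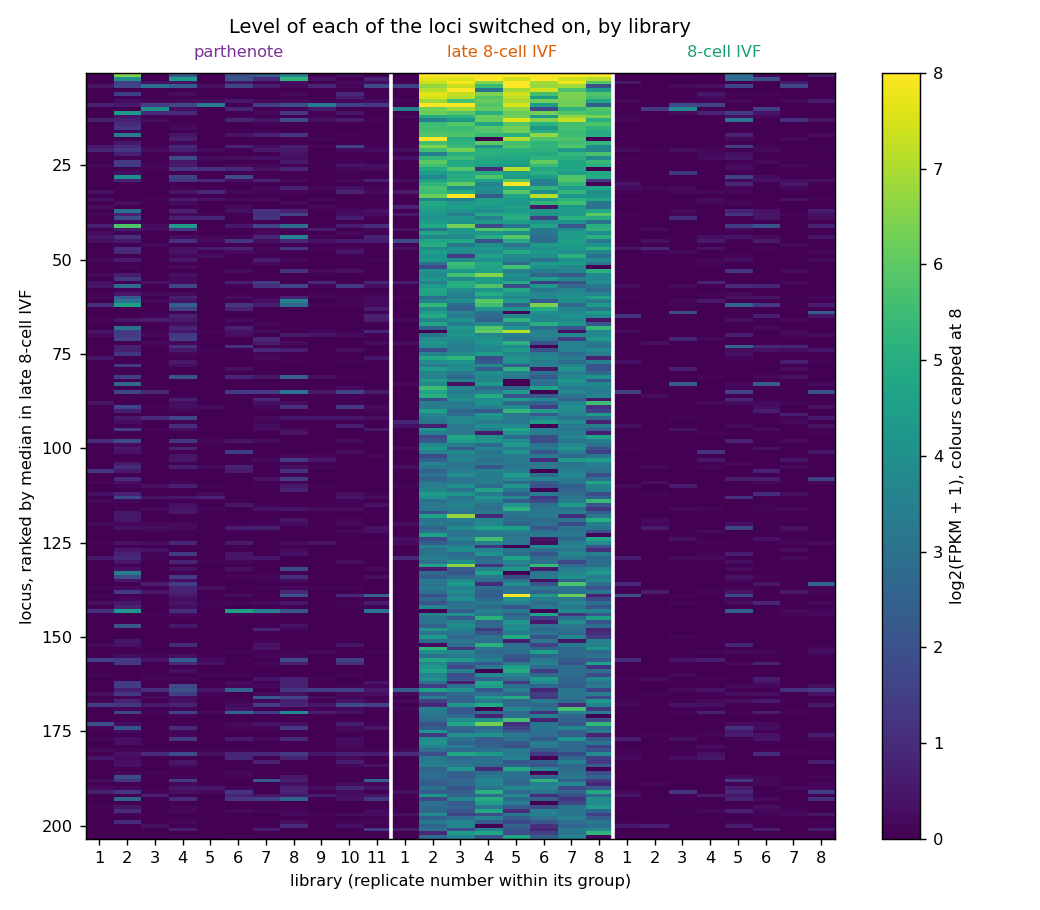
Level of each of the 203 loci (rows, ranked by late median from top to bottom) in each of the 27 libraries (columns, by group and replicate number), as log2(FPKM + 1) with colours capped at 8. The 7 late libraries other than replicate 1 are bright over nearly all rows, late replicate 1 is as dark as the 8-cell IVF libraries, and parthenote replicates 2, 4 and 8 show scattered brighter rows.

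The late medians ran from 388 FPKM at rank 1 to 5.02 FPKM at rank 203, with a median of 8.28 FPKM. Only 4 loci had a late median of 100 FPKM or more, 72 lay from 10 to under 100 FPKM and 127 from 5 to under 10 FPKM. Over the 7 late libraries other than replicate 1, ranks 1 and 2 held 15.3% of the summed level of the loci, ranks 1 to 10 held 35.3% and ranks 1 to 20 held 47.0%. The set was led by few loci, with a long tail of low ones.

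Rank 1, locus MSTRG.25701 with 4 transcripts, had a lowest, median and highest level of 0, 0.216 and 84.4 FPKM in parthenotes, 0, 388 and 937 FPKM in late embryos, and 0, 0.009 and 6.325 FPKM in 8-cell IVF embryos. The 0 of the late group was replicate 1, and the 7 other late libraries lay from 268 to 937 FPKM, above all parthenotes and all 8-cell IVF libraries. Rank 2, locus MSTRG.37019 with 14 transcripts, had 0, 0.653 and 36.8 FPKM in parthenotes, 0, 178 and 672 FPKM in late embryos, and 0, 0 and 5.955 FPKM in 8-cell IVF embryos. Again the late 0 was replicate 1, and the other late libraries started at 137 FPKM, above both other groups. For both loci the highest 8-cell IVF library was replicate 5.

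Rank 3, with 2 transcripts, was low in all libraries outside the late group. Its lowest, median and highest levels were 0, 0.194 and 1.84 FPKM in parthenotes, 0, 141 and 391 FPKM in late embryos, and 0, 0 and 0.492 FPKM in 8-cell IVF embryos. Rank 5, assembled as 1 transcript, was listed at 0 in all 11 parthenotes, in late replicate 1 and in all 8 of the 8-cell IVF libraries, and lay from 7.42 to 522 FPKM in the 7 other late libraries. Ranks 6, 7 and 8 reached at most 1.80, 0.491 and 0.473 FPKM in parthenotes, at least 49.4, 19.9 and 25.7 FPKM in those 7 late libraries, and at most 0.408, 0.174 and 0.494 FPKM in 8-cell IVF libraries. At these 5 loci, as at ranks 1 and 2, the late libraries other than replicate 1 lay above all libraries of both other groups, which overlapped each other. Of the 203 loci, the lowest of those 7 late libraries lay above all parthenotes at 138 and above all 8-cell IVF libraries at 169. The rule used both IVF groups, and replicate 1 was set aside for its low values at these same loci. The same counts over all loci are not given, so these counts are descriptions and nothing is read from them.

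Ranks 4, 9 and 10 overlapped between groups. Rank 4, with 12 transcripts, ranged over 0.069 to 6.88 FPKM in parthenotes, 1.94 to 318 FPKM in late embryos and 0 to 2.18 FPKM in 8-cell IVF embryos, and late replicate 8 was at 3.06 FPKM. Rank 9, with 6 transcripts, ranged over 0 to 9.22 FPKM in parthenotes, 4.20 to 457 FPKM in late embryos without replicate 1, which was at 0, and 0 to 2.49 FPKM in 8-cell IVF embryos. Rank 10, of 1 transcript, reached 14.9 FPKM in parthenote replicate 3 and 13.04 FPKM in 8-cell IVF replicate 3, stood at 11.3 FPKM in late replicate 1, and was at only 2.42 FPKM in late replicate 6. It was the 1 locus of the 203 above 5 FPKM in late replicate 1.

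**Figure D2:**
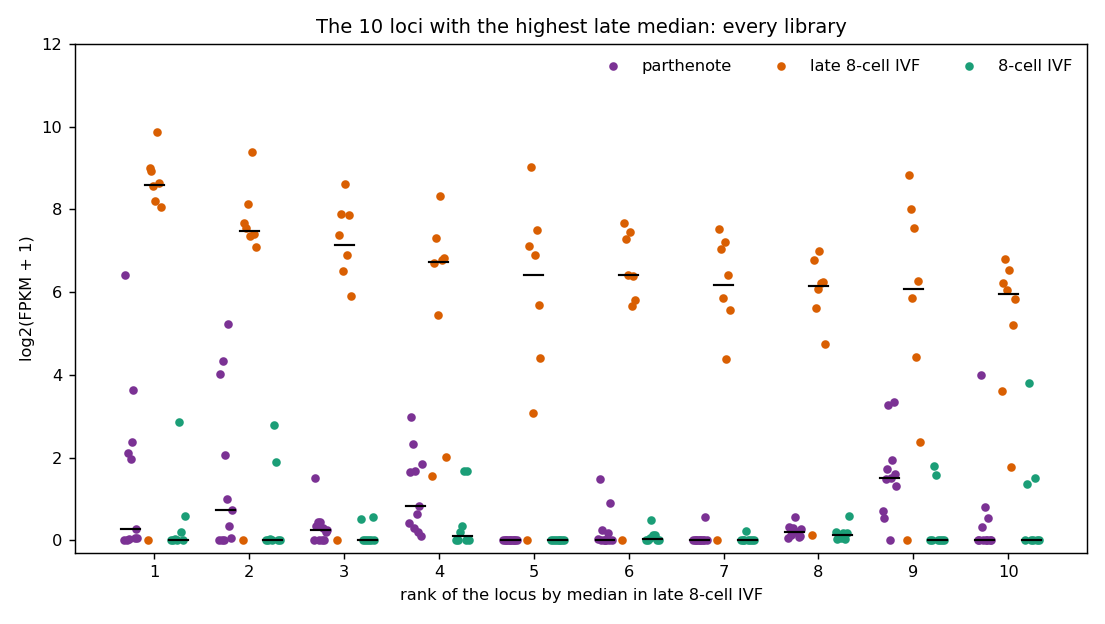
Levels of the 10 loci with the highest late median on a log2(FPKM + 1) axis, with 1 point per library for parthenotes, late 8-cell IVF and 8-cell IVF, and a black bar at each group's median. Ranks 1 to 3 and 5 to 8 are separated between late and both other groups apart from late replicate 1, whereas ranks 4, 9 and 10 overlap.

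Across the whole set, silence at the 8-cell stage was not complete. At 0 in all 8-cell IVF libraries were 32 loci, and at 0 in all parthenotes 13, with 9 loci at 0 in both groups. In at least 1 library, 84 loci reached 1 FPKM and 22 reached 5 FPKM among parthenotes, and 35 reached 1 FPKM and 4 reached 5 FPKM among 8-cell IVF embryos. No 8-cell IVF library exceeded the late median of any of the 203 loci, while a parthenote did so at 5 loci. The rule held the 8-cell IVF medians low and left the parthenotes free. There were also 11 parthenote libraries against 8 of 8-cell IVF, at median relative depths of 1.06 and 0.768. No difference between these groups is read from the counts.

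Levels were uneven among the late libraries. Of the 203 loci, 53 were at 5 FPKM or more in all 7 late libraries other than replicate 1, 47 in 6, 68 in 5 and 35 in 4 of them. At least 1 FPKM in all 7 was seen at 149 loci, and 21 loci were listed at 0 in some of the 7, with 9 such zeros in the shallow replicate 6 and 6 in replicate 8. The coefficient of variation over the 7 libraries had a median of 62.7%, with a lowest of 16.7% and a highest of 200%. At 91 loci the highest of the 7 was at least 10 times the lowest, and at 25 loci it was under 3 times the lowest.

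Single loci at both ends, singled out after their values were seen, show this spread. Rank 27, the steadiest, lay from 21.2 to 31.4 FPKM in the 7 late libraries. Rank 18 was at 266 FPKM in late replicate 2 and 131 FPKM in replicate 5, yet at 0.02 FPKM in replicate 4 and 0 in replicate 8. Rank 139, the most variable, was at 376 FPKM in replicate 5, at 70.4 FPKM in replicate 7 and at 0.681 FPKM in replicate 8. A high level in some late libraries thus stood beside near silence in others. How far depth or technical scatter bears on this was not tested.

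The late libraries also differed in which loci were high. Spearman correlations across the 203 loci ran from 0.09 to 0.57 over the 21 pairs of these 7 libraries, with a median of 0.31. The 5848 loci of fewer than 20 transcripts with a late median of at least 5 FPKM include the 203. Across these 5848 the same pairs had correlations from 0.49 to 0.85, with a median of 0.73. The choice by late median narrows the range of levels among the 203 loci, and loci of 1 library share its depth, so these values describe the libraries and were not tested. The highest pair among the 203 loci was replicates 4 and 8 at 0.57, although replicate 8 had only 0.09, 0.15 and 0.19 with replicates 5, 6 and 2.

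**Figure D3:**
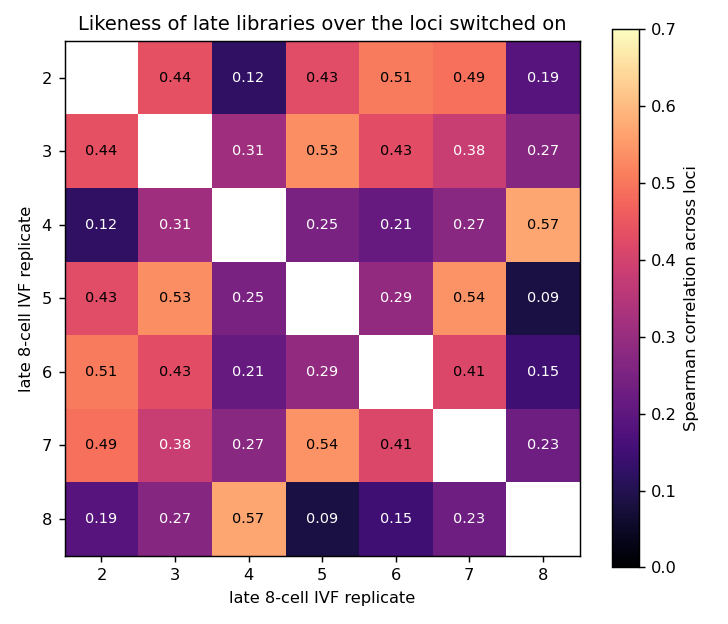
Spearman correlation across the 203 loci between each pair of the 7 late 8-cell IVF libraries other than replicate 1 (both axes: replicate number). Replicates 4 and 8 form the highest pair at 0.57, and replicates 5 and 8 the lowest at 0.09.

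The parthenotes were not used to pick the loci, so their levels tell how these loci stood in 8-cell embryos outside the IVF group. The parthenote median was under 0.1 FPKM at 141 of the 203 loci (69.5%), from 0.1 to under 1 FPKM at 59, from 1 to under 5 FPKM at 3, and at least 5 FPKM at 0. The median of these parthenote medians was 0.011 FPKM. The 5848 loci with a late median of at least 5 FPKM include the 203. By contrast, 69.5% of the 5848 had a parthenote median of at least 5 FPKM. A parthenote median under 0.1 FPKM was seen at 161 of them (2.75%), of which 141 were among the 203. The difference between these sets was not tested, since the 8-cell IVF levels that define the 203 loci come from the same stage.

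Traces in parthenotes were counted beside those at other loci silent in 8-cell IVF embryos. A parthenote median of at least 0.1 FPKM was seen at 30.5% of the 203 loci. It was seen at 20.02% of the 904 loci that were also under 0.1 FPKM in 8-cell IVF but had a late median of 1 to under 5 FPKM. It was seen at 16.1% of 4577 such loci with a late median of 0.1 to under 1 FPKM and at 5.40% of 53214 with a late median under 0.1 FPKM. These shares are descriptions of loci within shared libraries and were not tested.

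The trace varied among the 203 loci. It was seen at 10 of the 20 loci ranked 1 to 20, at 33.8% of the 80 ranked 21 to 100 and at 24.3% of the 103 below. Among the 110 loci of 2 or more transcripts it was seen at 42.7%, against 16.1% of the 93 loci of 1 transcript. Where the 8-cell IVF median was above 0 it was seen at 56.5% of 69 loci, and where that median was 0 at 17.2% of 134. None of these splits was tested.

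In the fit across 22414 loci that reached 1 FPKM in at least 4 libraries, which all 203 passed by the rule itself, 0 of the 203 differed between parthenotes and 8-cell IVF (limma, adjusted p under 0.05), against 1.46% of all loci tested (1.02% higher and 0.446% lower in parthenotes). At an unadjusted p under 0.05 there was 1 of the 203, rank 143, against 15.5% of all loci tested. It was 1.44 higher in parthenotes on the log2 scale, with an SE of 0.67 (limma, adjusted p = 0.29). The fit shares its estimate of spread with the late libraries, where the rule made these loci high, so nothing is read from these counts. With parthenotes and 8-cell IVF fitted alone, 12 of the 203 had an unadjusted p under 0.05 (limma), against 4881 of the 22414 loci. The fitted log2 fold changes of the 203 loci ran from -0.51 to 1.44 with a median of 0.08, beside a median of 0.05 over all loci tested. With a pseudocount of 0.1 in place of 1 these medians were 0.37 and 0.07. The estimates were above 0 at 163 of the 203 loci, against 56.0% of all loci tested, and the rule, which held the 8-cell IVF medians low, bears on that sign. The estimate was 1.08 with an SE of 0.94 for MSTRG.25701 (limma, adjusted p = 0.65) and 1.03 with an SE of 0.88 for MSTRG.37019 (limma, adjusted p = 0.64). A missed threshold does not show equal levels. Request number, breed cross and fertilisation split these libraries in the same way and cannot be told apart.

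Between parthenotes and late embryos, 202 of the 203 loci were called lower in parthenotes and 0 higher (limma), against 23.1% of all loci tested called lower, 42.1% called higher and 65.2% called in either direction. The rule used the late libraries, so nothing is read from this count. The median log2 fold change was -2.70, beside 0.41 over all loci tested. The exception was rank 143, with an estimate of -0.29 and an SE of 0.67 (limma, adjusted p = 0.70). Parthenotes and late libraries carry the same request number and differ in breed cross, fertilisation and stage, which cannot be told apart.

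Rank 143, with 2 transcripts, was high in some parthenotes and absent from others. It was at 22.3 FPKM in parthenote replicate 6, at 18.1 FPKM in replicate 2 and at 10.3 FPKM in replicate 7, and listed at 0 in replicates 3, 5, 9 and 10. Its late range was 0 to 13.6 FPKM and its 8-cell IVF range 0 to 4.57 FPKM. Rank 9 was the most regular in parthenotes, at 1 FPKM or more in 8 of 11 with a median of 1.86 FPKM, against a median of 66.6 FPKM in late embryos and of 0 in 8-cell IVF embryos. Rank 164 was the other locus with a parthenote median of at least 1 FPKM, at 1.16 FPKM, with late and 8-cell IVF medians of 5.88 and 0.073 FPKM.

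Most parthenote signal sat in few libraries. Per library, 1 FPKM was reached by 16.4 loci ± 16.4 (SD, n = 11) in parthenotes, 170 ± 67.4 (SD, n = 8) in late embryos and 6.25 ± 5.68 (SD, n = 8) in 8-cell IVF embryos. Without replicate 1 the late number was 194 ± 6.80 (SD, n = 7). Parthenote replicate 2 had 54 such loci, replicate 4 had 33 and replicate 8 had 31, while the 8 other parthenotes had 2 to 15. Of the 84 loci that reached 1 FPKM in a parthenote, 78 did so in replicate 2, 4 or 8 and 10 in all 3 of these. Replicate 2 was the highest parthenote at 39 of the 84, and replicates 4 and 8 at 14 each. The relative depths of replicates 2, 4 and 8, at 1.05, 1.09 and 0.869, lay within the range of the other parthenotes.

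At a few loci these parthenotes went beyond the late level. Rank 41, with 8 transcripts, was at 55.2 FPKM in parthenote replicate 2 and 20.1 FPKM in replicate 4, above its late median of 15.997 FPKM, and at 0 in parthenote replicates 5 and 9. Rank 62 was at 22.4 FPKM in parthenote replicate 2, against a late median of 12.4 FPKM. Rank 133 was at 8.72 FPKM in that library and at 0 in all other parthenotes, against a late median of 6.94 FPKM. Rank 170 was at 13.7 FPKM in parthenote replicate 8, against a late median of 5.67 FPKM. Rank 1 also had its highest parthenote level, 84.4 FPKM, in replicate 2.

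Among the 8-cell IVF embryos, replicate 5 stood highest, with 19 of the loci at 1 FPKM or more and a sum of 77.4 FPKM, against 1 to 7 loci in each of the 7 others. Of its 19 loci, 12 also reached 1 FPKM in parthenote replicate 2. That is 22.2% of the list of parthenote replicate 2 and 63.2% of the list of 8-cell IVF replicate 5. Without 8-cell IVF replicate 5 the mean sum in 8-cell IVF embryos was 21.2 FPKM ± 11.02 (SD, n = 7).

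The loci with the opposite course were set beside these. The same limits turned round, a median of at least 5 FPKM in 8-cell IVF embryos and under 0.1 FPKM in late embryos, gave 52 loci, called switched off here. Their summed level was 298 FPKM ± 93.03 (SD, n = 11) in parthenotes, 35.3 FPKM ± 53.1 (SD, n = 8) in late embryos and 392 FPKM ± 56.3 (SD, n = 8) in 8-cell IVF embryos. Without replicate 1 the late sum was 17.97 FPKM ± 22.4 (SD, n = 7), and the IVF levels were fixed by the choice. In parthenotes 20 of the 52 had a median of at least 5 FPKM and 51 one of at least 1 FPKM.

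Library by library, the loci switched on and off did not always move together. Parthenote replicates 4 and 8 had the lowest sums of the loci switched off among parthenotes, at 153 and 186 FPKM, together with 33 and 31 loci switched on. Replicate 9 had 244 FPKM and 2 loci switched on, while replicate 2 had 246 FPKM and 54. Late replicate 1 had 156 FPKM of the loci switched off, against 0.367 to 60.6 FPKM in the 7 other late libraries and 317 to 482 FPKM in 8-cell IVF embryos, yet only 4 loci switched on. Late replicates 4 and 8 retained 36.5 and 60.6 FPKM, above the 0.367 to 11.49 FPKM of the 5 remaining late libraries.

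**Figure D4:**
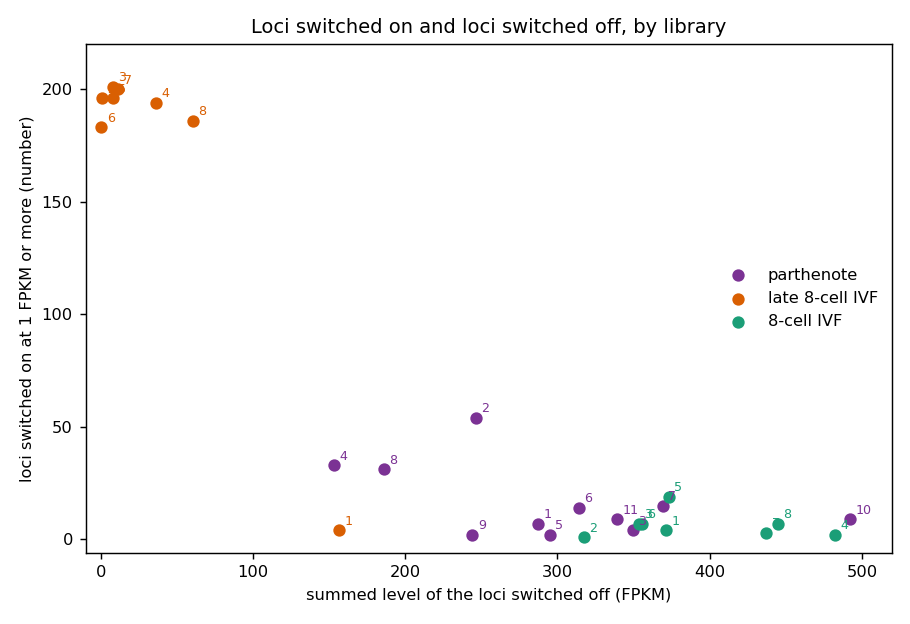
Number of the 203 loci at 1 FPKM or more (vertical axis) against the summed FPKM of the 52 loci switched off (horizontal axis), with 1 point per library, labelled by replicate number, for parthenotes, late 8-cell IVF and 8-cell IVF. Late replicate 1 has 4 loci on and 156 FPKM, away from the other late libraries and the 8-cell IVF libraries. Parthenote replicate 4 has a similar sum, 153 FPKM, with 33 loci on. Parthenote replicates 2, 4 and 8 stand above the other parthenotes.

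In structure, 93 of the 203 loci switched on (45.8%) had 1 transcript, with a median of 2 and a highest of 15. The share was 24.0%, with a median of 4, among the 5848 loci with a late median of at least 5 FPKM, the 203 included. It was 17.3% among the 52 loci switched off. Of all 116933 assembled loci, 100871 had 1 transcript, so the 203 were simple only beside expressed loci. The limit of 20 transcripts removed 0 loci that met both medians. At the 110 loci of several transcripts, the leading transcript held a median of 46.1% of the level over the 7 late libraries. It was the same transcript in each of those libraries that reached 1 FPKM at 75 of the 110. Transcripts of a locus share reads, so the split between them is uncertain.

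Locus numbers were given by the assembly, and the files do not say what they order. Numbers from 100000 on held 51 of the 203 loci (25.1%). They held 10.2% of the 5848 loci with a late median of at least 5 FPKM, the 203 included. The limit of 100000 was chosen after the numbers were seen. A further locus within 5 numbers that was also under 0.1 FPKM in 8-cell IVF and at least 1 FPKM in late embryos was found for 82 of the 203 (40.4%), against 11.2% of the other 5645 loci with a late median of at least 5 FPKM. The difference between these shares was not tested. There were 20 pairs of the 203 loci within 5 numbers, 11 of them at consecutive numbers.

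Some of these pairs kept a fixed ratio. MSTRG.25701 was 8.98 to 9.01 times as high as rank 17, the locus with the next number, in each of the 7 late libraries, and both were above 0 in the same libraries of all 27. Ranks 4 and 66 kept a ratio of 8.69 to 10.1, and ranks 16 and 180 one of 8.01 to 8.24. In 6 of the 20 pairs the ratio varied by less than 1.5 times over the 7 late libraries, and any shared reads between them could not be assigned. Other pairs moved apart: ranks 9 and 45, at consecutive numbers, had ratios from 0.524 to 19.5. The Pearson correlation of log2(FPKM + 1) over the 7 late libraries had a median of 0.82 for the 20 pairs and of 0.05 over all 20503 pairs of the 203 loci. The number 203 therefore counts assembled loci, not separate genes.

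**Figure D5:**
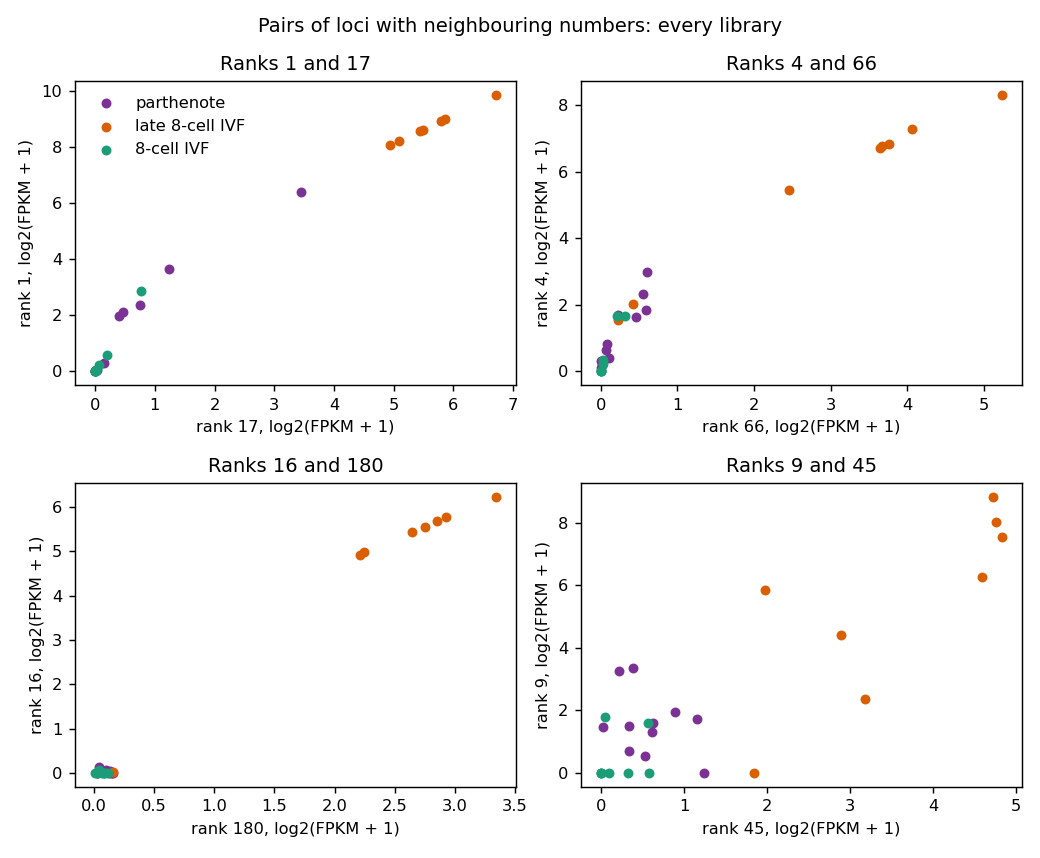
Levels of 4 pairs of loci with neighbouring numbers in all 27 libraries, both axes as log2(FPKM + 1), coloured by group (parthenote, late 8-cell IVF, 8-cell IVF). Ranks 1 and 17, 4 and 66, and 16 and 180 fall on a line in late embryos, whereas ranks 9 and 45 scatter.

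The limits cut through a continuum. The 5 loci just inside the late limit had late medians of 5.02 to 5.12 FPKM and the 5 just outside 4.89 to 4.97 FPKM. At the 8-cell limit, the 5 just inside had 8-cell IVF medians of 0.089 to 0.0955 FPKM with late medians of 5.29 to 69.9 FPKM, and the 5 just outside had 0.1005 to 0.103 FPKM with late medians of 7.69 to 60.3 FPKM. Without late replicate 1 the same rule gave 231 loci, which included all 203.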

How the data were processed

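Values were the authors' deposited FPKM per assembled transcript in 27 libraries. Per the labels' protocols, cDNA came from a SMART-Seq v4 low-input kit and libraries from Nextera XT. FastQC 0.10.1, TopHat2 2.1.0 and StringTie are named in the submitters' processing notes. Genome build, annotation and filters: not given in the sources used here. None of the 173449 transcript identifiers matched the RefSeq table of assembly ARS-UCD2.0 (0 matched), so no gene name, position or sequence is given. The kit is not stated to keep strand, so antisense partners cannot be told apart.

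FPKM was summed per locus. Loci at 1 FPKM in at least 4 libraries entered limma 3.58.1 (R 4.3.3) as log2(FPKM + 1), with 3 groups in one fit, trend and robust settings, two-sided, Benjamini-Hochberg adjusted over 22414 loci, threshold 0.05. Fold changes on this scale understate changes of low loci. The fit was tested on simulated data. Other steps used Python 3.11.15, numpy 2.4.6 and pandas 2.3.3. Relative depth came from ratios of low transcripts (0.05 to 5 FPKM, above 0 in at most 9 libraries), and 95.2% of library pairs lay within 0.03 log2 of the fit. FPKM gives no read totals, so no counting interval is given and no count test was run.

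The members, lists and limits were chosen with earlier results of these data known. Named by identifier were the 2 loci with the highest late median. The others are given by rank. Alternatives were pseudocount, filter, scaling, weights, groups in the fit, replicate block, locus value, limits, means for medians, and each library left out.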

Additional observations from a re-analysis of the deposited data

Results flagged for a closer look

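In groups of 8 libraries, the values below lay farther from the rest of their group than Dixon's 95% limit allows. For normally distributed values and 1 measure, chance does this in about 1 of 20 groups. That rate does not hold here, since the values are skewed, many measures were screened and the rule used both IVF groups. The flags are therefore descriptions. Parthenotes, a group of 11, were not tested in this way.

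Late 8-cell IVF replicate 1 had 4 of the 203 loci at 1 FPKM or more, the lowest of its group, and 156 loci at 0, the highest. Its sum over the 52 loci switched off, 156 FPKM, was also the highest of its group. In late 8-cell IVF, rank 2 was highest in replicate 6 at 672 FPKM, the shallowest library, and rank 5 was highest in replicate 3 at 522 FPKM.

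8-cell IVF replicate 5 had the highest sum over the 203 loci in its group, 77.4 FPKM, and the highest number at 1 FPKM or more, 19. In the same library MSTRG.25701 was at 6.325 FPKM and MSTRG.37019 at 5.955 FPKM, each the highest of its group.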

How the results depend on the processing

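The number of loci chosen was 203 and moved most with the late limit, to 418 at 2.5 FPKM and 76 at 10 FPKM. The number with a parthenote median under 0.1 FPKM, 141, was then 301 and 45. All other settings of the rule left both within 1.5 times, but the loci themselves changed more. Means in place of medians gave 177 loci, of which 126 were among the 203. The transcript with the highest mean in place of the sum gave 171, of which 138 were among the 203. Leaving out each library in turn gave 188 to 231 loci and 130 to 159 under 0.1 FPKM in parthenotes. In the comparison of parthenotes with 8-cell IVF, 0 of the loci were called in each setting but the fit of those 2 groups alone, which called 1. Leaving out each library gave 0 each time. Against late 8-cell IVF the number called was 202, beside 14615 of all 22414 loci. With a filter of 8 libraries it was 80 of the 81 that passed, beside 11511 of 16221 loci. Leaving out each library gave 200 to 202. The rule used the late libraries, so nothing is read from how steady these counts were. With the replicate number as a block the counts were 0 and 200. Same-numbered libraries of different groups did not deviate together (median correlations 0.01, 0.00 and 0.02). No pairing by number was thus seen, though a weak one could be missed. Of all loci, 328 were called between parthenotes and 8-cell IVF, against 1895 with array weights, 1080 with 2 groups, 135 with no filter, 200 with the block, and 631 without late replicate 1. Without 8-cell IVF replicate 1, 2, 5, 6 or 7 this was 161, 188, 215, 213 and 190. The causes were not tested. In parthenotes against late 8-cell IVF all loci had a median log2 difference of 0.41. It was 0.18 under quantile normalization, 0.29 under median-of-ratios scaling and 0.47 with equal FPKM sums. Under these scalings that of the 203 loci lay between -2.81 and -2.57. With pseudocounts of 0.1 and 5 that of the 203 was -4.80 and -1.27, beside 0.89 and 0.14 over all loci. Without late replicate 1 that of the 203 was -3.08. Depth limits loci near 0, above all in late replicate 6.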
